A study of Homo sapiens with 22 samples.

Results

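The RNA-Seq library of LN308 cells treated with thapsigargin for 6 h was compared with the 3 RNA-Seq libraries of untreated LN308 cells, 4 of the 22 samples of a series that also holds ribosome footprints and tunicamycin treatments. LN308 is a p53-deficient glial cell line derived from an astrocytoma. Cells received 200 nM thapsigargin, dissolved in DMSO, for 6 h, and the comparison group is labelled untreated at 0 h, while the protocol in the labels names DMSO alone as the control, so no library records vehicle alone for 6 h. The thapsigargin group holds 1 library, labelled replicate 1, and the untreated group holds replicates 1, 2 and 3. Nothing in the labels says that the replicates are separate cultures, so p-values measure the spread between these libraries only. Within the thapsigargin group no spread could be measured. The test borrowed it from the 3-library groups of the series (untreated, and tunicamycin at 2.5 µg/ml for 2 h and 6 h) and assumed that the lone library varies like them.

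Thapsigargin blocks SERCA, the pump that returns calcium from the cytosol to the endoplasmic reticulum (ER). The store empties, calcium-dependent chaperones lose function, and unfolded proteins activate the sensors of the unfolded protein response. PERK phosphorylates eIF2 and favours translation of ATF4, IRE1 splices XBP1 mRNA, and cleaved ATF6 enters the nucleus. ATF6 and spliced XBP1 act on promoters of chaperones and of the degradation machinery, while ATF4 and its partner CHOP act on amino acid, tRNA synthetase and cell death genes. Emptied stores also open calcium entry from outside, and cytosolic calcium activates calcineurin and the transcription factor NFAT.

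The 4 libraries held between 101371822 and 144514571 counts, the latter in the thapsigargin library. Untreated replicate 1 stood apart from all other RNA-Seq libraries. It had counts in 53489 genes against 38264 to 40331 elsewhere, 69.3% of 375 olfactory receptor genes reached 10 counts in it against 2.93 to 5.6% elsewhere, and on the first principal component (47.68% of the variance) its score was 329.7, with all others at or below -16.26. On the second component (21.3%) the thapsigargin 6 h library lay at 116.4, together with thapsigargin 2 h and replicate 1 of both tunicamycin groups (61.13 to 90.95). All untreated libraries lay at or below 4.636. Those 4 libraries also had a lower share of mitochondrially encoded mRNA, 0.443 to 0.587% of counts against 1.06 to 1.61% in the rest. This set contains no untreated library, so within the comparison with untreated cells it cannot be told apart from thapsigargin. For this reason results are given with and without untreated replicate 1, and the tunicamycin libraries are placed beside the genes that matter most.

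Of the glial markers, VIM, an intermediate filament protein, was abundant at 1312 CPM (read counts relative to the library's total, after scaling by the trimmed mean of M-values) in the thapsigargin library, and the astrocyte markers GFAP, AQP4 and ALDH1L1 stood at 1.93, 0.00766 and 0.023 CPM. The summed level of the 16 glial markers was 2264 CPM against 1607, 4385 and 4870 in untreated replicates 1, 2 and 3. The 12 epithelial markers summed to 101.6 CPM against 65.85 to 81.28, and the 12 neuronal markers to 110.1 against 132.8 to 244.7. The 10 fibroblast markers summed to 60.75 against 59.52 to 83.49, and the 13 tested of 14 blood markers to 3.369 against 3.818 to 7.465. Of the 14, 6 were at 0 counts after thapsigargin. No glial, epithelial or fibroblast marker was at 0 counts in the thapsigargin library, while 2 epithelial markers were in untreated replicate 3. The part of these differences in the results below was not tested. Lower RNA per cell and fewer expressing cells cannot be told apart in such bulk libraries.

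A few of the genes that rose carry, in their promoters, sequences through which the stress factors are known to act, and these are shown because HSPA5, HERPUD1, XBP1 and ASNS are among the genes the results turn on. The ER stress element (ERSE) is CCAAT and CCACG 9 bases apart, bound by NF-Y and ATF6. ERSE-II is ATTGG and CCACG 1 base apart. The amino acid response element of ASNS is TGATGAAAC. All were searched on both strands of the RefSeq promoters (GRCh38.p14), from 250 bases before to 50 after each start. Below, capitals mark the matched bases, and each stretch runs 5′ to 3′ on the gene's strand. For ERSE, CGTGG with ATTGG is the same element read from the opposite strand, and for ERSE-II, CGTGG with CCAAT is.
HSPA5, ERSE, chr9:125241376-125241424, minus strand: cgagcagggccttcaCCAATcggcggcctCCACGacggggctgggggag
CRELD2, ERSE, chr22:49918539-49918587, plus strand: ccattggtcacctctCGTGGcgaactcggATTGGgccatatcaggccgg
XBP1, ERSE, chr22:28800588-28800636, minus strand: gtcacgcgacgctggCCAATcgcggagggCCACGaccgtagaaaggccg
HERPUD1, ERSE-II, chr16:56932010-56932050, plus strand: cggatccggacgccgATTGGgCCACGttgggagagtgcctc
SDF2L1, ERSE-II, chr22:21642099-21642139, plus strand: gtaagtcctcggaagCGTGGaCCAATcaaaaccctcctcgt
ASNS, amino acid response element, chr7:97872453-97872491, minus strand: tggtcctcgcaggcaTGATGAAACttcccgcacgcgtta
HSP90B1, with 2 ERSE matches, chr12:103930201-103930354, plus strand: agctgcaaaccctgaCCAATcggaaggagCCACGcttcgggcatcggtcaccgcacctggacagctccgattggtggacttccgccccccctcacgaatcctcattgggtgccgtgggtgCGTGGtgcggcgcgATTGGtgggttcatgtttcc
HYOU1, with 2 ERSE-II matches, chr11:119057259-119057405, minus strand: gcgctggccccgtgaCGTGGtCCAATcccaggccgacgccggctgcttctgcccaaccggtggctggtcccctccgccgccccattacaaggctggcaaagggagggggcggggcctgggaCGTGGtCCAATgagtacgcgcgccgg

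ERSE occurred in 22 of 27305 promoters (0.0806%) and in 6 of the 26 ER chaperone genes with a promoter in the table, namely HSPA5, HSP90B1, CALR, CANX, ERO1B and CRELD2. Of these 6, HSPA5, HSP90B1, ERO1B and CRELD2 rose after thapsigargin, where 16 of all 29 chaperone genes tested rose. The lectin chaperones CALR and CANX were not called (log2 fold changes 0.95 and 1.29, adjusted p = 0.262 and 0.116). ERSE-II occurred in 15 promoters (0.0549%), 3 of them in HERPUD1, SDF2L1 and HYOU1, and all 3 genes rose. For most other genes with an ERSE or ERSE-II match no RNA change is given here. These counts therefore do not show how genes with a match behave. The element TGATGAAAC occurred in 60 promoters (0.22%), including ASNS, 1 of the 25 PERK and ATF4 targets with a promoter in the table, and SLC7A1, an amino acid carrier that was not called (-0.02, adjusted p = 0.992). None of those 25 promoters held ERSE or ERSE-II. A match is a string of letters in this window and no measure of binding.

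Over all 11 RNA-Seq libraries, edgeR's quasi-likelihood test called 737 of 41130 genes at a Benjamini-Hochberg adjusted p under 0.05. Of these, 613 rose (1.49% of the genes tested) and 124 fell (0.301%), or 1.79% in either direction, and 535 of the 737 were protein-coding. The median log2 fold change was 2.12 among genes that rose and -2.46 among those that fell, against -0.50 over all genes. Without untreated replicate 1 the same test called 2411 of 31144 genes (7.74%), 1476 higher (4.74%) and 935 lower (3.0%), and the median of all genes moved to -0.06. Of the 737 genes, 736 were called again with the same sign. The number depended on single libraries: it was 178 without untreated replicate 2, 262 without untreated replicate 3, and 269 to 388 without replicate 2 or 3 of either tunicamycin group. It was 1134 without tunicamycin 2 h replicate 1. Of 85 genes described below and called, 43 were called whichever library was left out. The other 42 missed the threshold without at least 1 replicate 2 or 3 of the untreated or tunicamycin groups, at adjusted p of 0.0503 to 0.121, while their sign did not change. These were AARS1, AATK, ASNS, ATF3, ATF4, ATP2B1, BET1, CCPG1, CEBPG, CLDN4, CREM, CXCL3, DNAJB4, EPRS1, F2RL3, GARS1, GPT2, HSP90B1, HSPA5, IDI1, IGFBP3, IL6, KLF4, KLHDC8A, MAGT1, MIR140, MTHFD2, NFKBIZ, NR4A2, PTGS2, RASGRF1, RGS16, RGS2, SARAF, SDF2L1, SESN2, SHMT2, SOX8, TMEM121, TNFRSF10A, VWA2 and WNK4. With libraries scaled by their totals alone, 292 genes were higher and 122 lower, so the share of higher genes among those called depended on the scaling. The median of all genes depended on untreated replicate 1 (-0.50 with it and -0.06 without it). It is therefore no fixed baseline for the fold changes below.

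The chaperones and folding enzymes of the ER rose broadly. Of 29 members of the list, 16 rose and none fell, with a median log2 fold change of 1.62, and 27 lay above all 3 untreated libraries, which 25.2% of all genes did. Without untreated replicate 1, 19 rose and the median was 1.71. Among them was HSPA5 (BiP), the main ER Hsp70 chaperone, which also binds the stress sensors. Its level was 506, 1008 and 1141 CPM in untreated replicates 1, 2 and 3 and 7489 CPM after thapsigargin, which gave a change of 3.08 ± 0.60 on the log2 scale (SE, adjusted p = 0.033, and 0.0578 to 0.0879 when any replicate 2 or 3 was left out). The thapsigargin value lay above all 3 untreated ones, of which replicate 1 was the lowest.

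DNAJB9 (ERdj4), a J-domain co-chaperone of BiP that helps clear misfolded proteins, had the smallest adjusted p of the chaperones. It stood at 21.1, 17.6 and 16.8 CPM in the untreated libraries and at 598 CPM after thapsigargin (5.02 ± 0.28, adjusted p = 7.27e-05), 32.4 times the untreated mean of 18.5 ± 2.27 CPM (SD, n = 3). The untreated values lay close together and far below the treated one. ERO1B, an oxidase that feeds disulfide bonds into the folding enzymes, went from 25.9, 18.9 and 24.7 CPM to 155 (2.75 ± 0.28). The co-chaperones DNAJB11 (2.69) and DNAJC3 (2.64), the disulfide isomerase PDIA4 (2.23), the nucleotide exchange factor HYOU1 (2.51) and SDF2L1 (2.28 ± 0.42, adjusted p = 0.0275), which holds DNAJB11 in a complex, also rose. HSP90B1 (GRP94), the ER Hsp90, was already at 981 to 1090 CPM and reached 4595 CPM (2.13 ± 0.34).

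**Figure D1:**
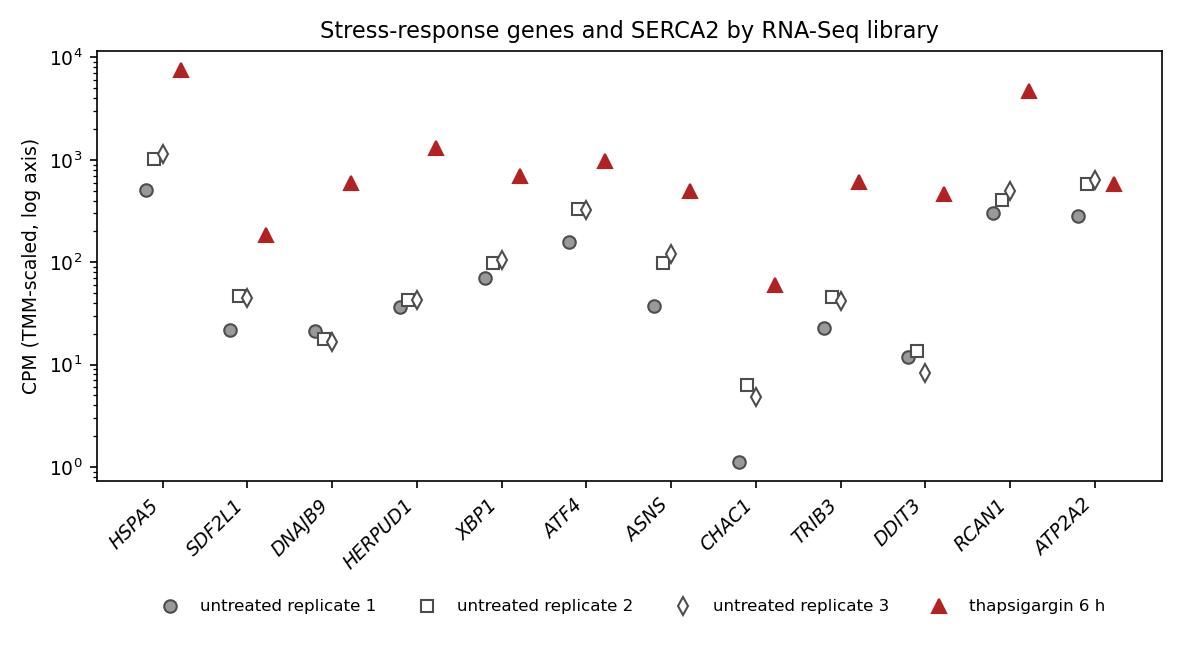
Level of 12 stress-response genes in each RNA-Seq library, in CPM on a log axis, with grey circles for untreated replicate 1, open symbols for replicates 2 and 3 and red triangles for thapsigargin at 6 h. In 11 of the 12 genes the thapsigargin value lies above all untreated values. ATP2A2, at 580 CPM, lies inside the untreated range of 285 to 631 CPM.

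ER-associated degradation, which draws misfolded proteins back into the cytosol for the proteasome, rose in 11 of 25 members with none lower, at a median of 1.34. The median was 1.09 without untreated replicate 1, when 13 rose. HERPUD1, which assembles the HRD1 ubiquitin ligase complex, stood at 36.7, 42.4 and 42.6 CPM and reached 1306 CPM (5.01 ± 0.29, adjusted p = 7.27e-05). Its untreated spread was small, 40.6 ± 3.37 CPM (SD, n = 3). SEL1L, the scaffold of the same complex, went from 120, 152 and 159 CPM to 944 (2.72 ± 0.29), and the channel-forming derlin DERL3 from 3.13, 2.33 and 3.13 to 16.6 (2.53). EDEM1, a mannose-trimming factor that marks glycoproteins for removal, rose by 2.23. The ligase itself, SYVN1 (HRD1), was at 221 CPM against 34.9, 63.4 and 64.8, and missed the threshold (2.02, adjusted p = 0.101).

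Genes of ER translocation and vesicle traffic rose in 15 of 40 members with none lower (median 1.13, and 0.91 with 17 called without untreated replicate 1), and 38 of 40 lay above all untreated libraries. SEC11C, a signal peptidase subunit, went from 18.9, 25.9 and 27.6 CPM to 178 (2.89 ± 0.41). The coat protein SEC23B of vesicles leaving the ER went from 79.0, 106 and 96.5 CPM to 643 (2.77 ± 0.36), and ARFGAP3 and BET1, of Golgi traffic, rose by 2.49 and 2.50. In the N-glycosylation and hexosamine list 7 of 31 rose and none fell, with a median of 0.65. Its leaders make the sugar donor: GFPT1, the entry enzyme of the hexosamine pathway, went from 71.0, 122 and 125 CPM to 806 (2.92 ± 0.33), and PGM3 from 43.4, 59.7 and 59.8 to 384 (2.82 ± 0.33). ALG2 and MAGT1, which build and transfer the glycan, rose by 2.28 and 1.92.

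Among the sensors and transcription factors of the response, 6 of 15 rose and none fell (median 1.42, and 1.16 with 8 called without untreated replicate 1). XBP1, whose mRNA IRE1 splices, stood at 70.2, 97.9 and 105 CPM and reached 702 CPM (2.95 ± 0.32, adjusted p = 0.00256). EIF2AK3, which encodes PERK, went from 21.1, 25.0 and 27.1 CPM to 190 (2.96 ± 0.30). ATF4 went from 158, 332 and 326 CPM to 965 (1.83 ± 0.38, adjusted p = 0.0424), and its partner CEBPG rose by 2.28. The genes of the other sensors were not called over all libraries: ERN1 (IRE1) was at 48.9 CPM against 17.6 to 26.4, and ATF6 at 275 CPM against 116 to 128 (adjusted p = 0.251 and 0.0573). ATF6 rose without untreated replicate 1 (1.16, adjusted p = 0.0226), without replicate 1 of either tunicamycin group (adjusted p = 0.046 and 0.0462), with a minimum count of 50 (0.0285) and by DESeq2 (0.000247). ERN1 rose with the replicate number as a term (1.71, adjusted p = 0.0243).

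The PERK and ATF4 branch had the highest median of the 23 lists described here. Of 30 targets, 11 rose and none fell, with a median of 1.88 that was 1.92 without untreated replicate 1, when 17 of 29 rose. DDIT3, which encodes the death-associated factor CHOP, stood at 11.8, 13.6 and 8.24 CPM and reached 461 CPM (5.36 ± 0.58, adjusted p = 0.00256). That was 41.1 times the untreated mean, and the 3 untreated values did not come near it. TRIB3, a pseudokinase induced by ATF4 and CHOP, went from 22.6, 45.9 and 41.6 CPM to 603 (4.04 ± 0.40). CHAC1, which degrades glutathione, went from 1.13, 6.35 and 4.81 CPM to 59.6 (3.87 ± 0.65, adjusted p = 0.0187). SESN2, a brake on mTORC1, rose by 3.89 from 10.9 to 27.2 CPM up to 300 CPM.

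Amino acid supply and tRNA charging, which ATF4 is known to control, also held many genes that rose. Of 26 genes of amino acid synthesis and transport, 10 rose and none fell (median 1.3). CTH, the last enzyme of cysteine synthesis, went from 4.75, 2.63 and 3.34 CPM to 67.6 (4.24 ± 0.39, adjusted p = 0.00169), and ASNS, asparagine synthetase, from 37.1, 98.3 and 119 to 497 (2.55 ± 0.48, adjusted p = 0.0302). GOT1 and GPT2, both aminotransferases, rose by 2.64 and 1.76, and the glutamine carrier SLC38A2 went from 486 to 691 CPM up to 2900 CPM (2.23 ± 0.31). Of 20 cytosolic tRNA synthetases, WARS1, AARS1, EPRS1 and GARS1 rose (1.70 to 2.15) and none fell, while 11 rose without untreated replicate 1, and the median was 1.31. In the one-carbon and folate list the median was 0.06 and 3 of 26 rose, all 3 of them mitochondrial enzymes, and none fell. These were ALDH1L2 (16.7, 20.6 and 19.5 CPM against 159, log2 fold change 3.07), MTHFD2 (2.57) and SHMT2 (1.87). With untreated replicate 1 left out, MTHFD2L rose too (1.17, adjusted p = 0.0246), and 3 fell: TYMS, thymidylate synthase (-1.82, adjusted p = 0.0493), the folate carrier SLC19A1 (-2.28, adjusted p = 0.0322) and MAT2A, which makes S-adenosylmethionine (-1.48, adjusted p = 0.0177).

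mRNAs with upstream reading frames that are known to regulate their translation under eIF2 phosphorylation rose in 5 of 15 members with none lower (median 1.26, and 1.55 with 7 called without untreated replicate 1). Of these, ATF4, DDIT3 and EPRS1 also stand in lists above. The others were IFRD1, a transcriptional coregulator, from 70.0, 107 and 108 CPM to 612 (2.69 ± 0.30), and IBTK, an inhibitor of Bruton's tyrosine kinase, from 102, 99.5 and 107 to 598 (2.54 ± 0.34, adjusted p = 0.0068).

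**Figure D2:**
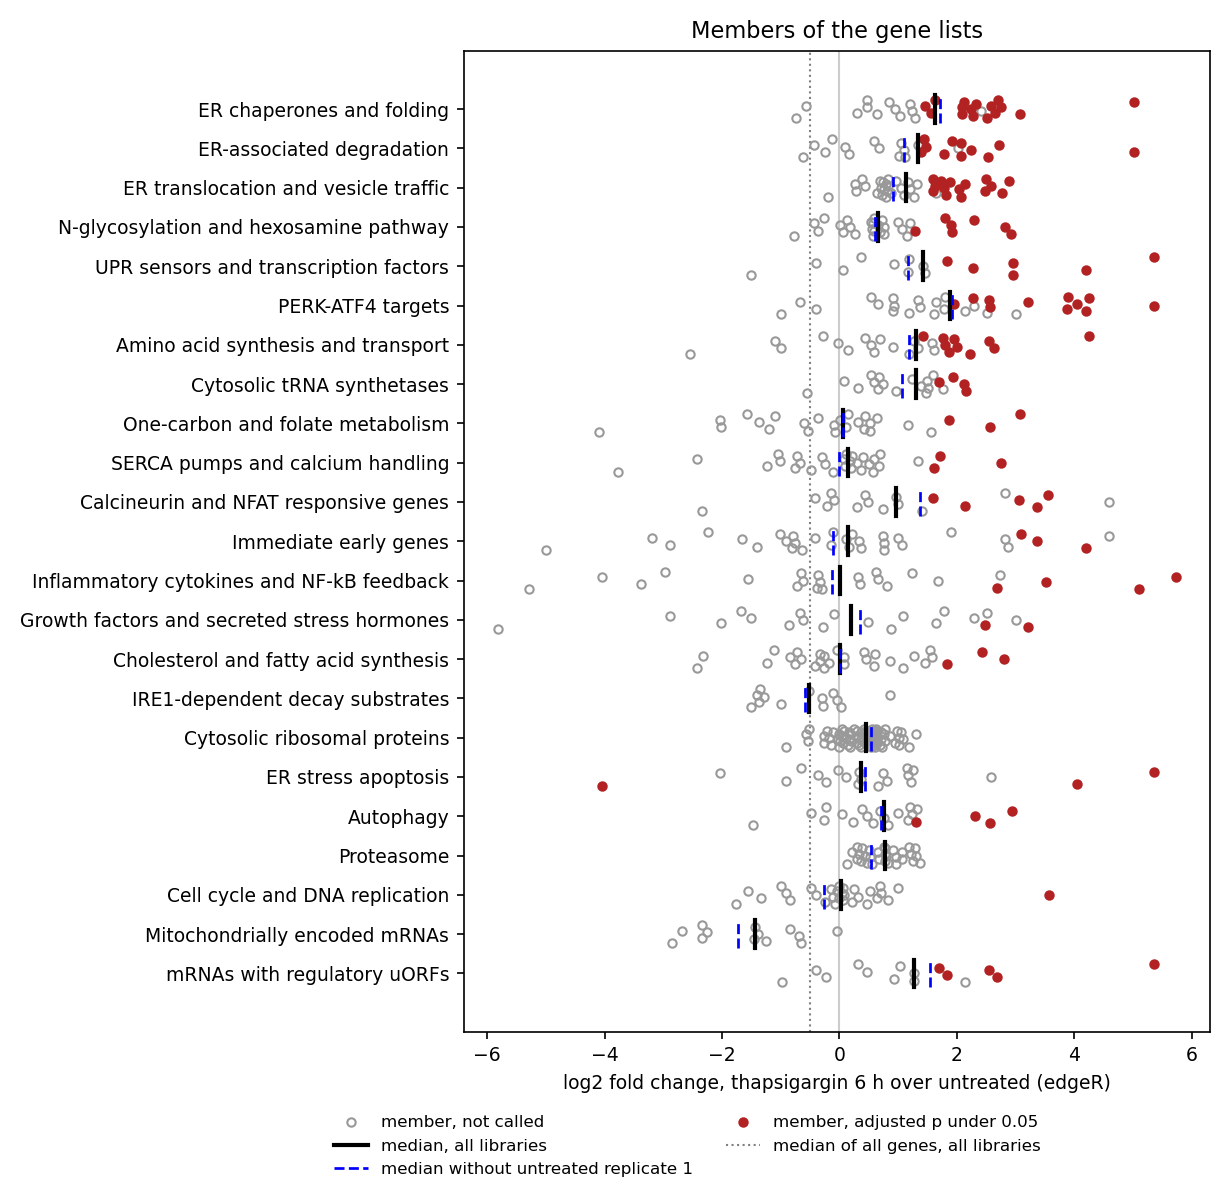
Log2 fold change of each tested member of 23 gene lists, thapsigargin at 6 h over untreated, with called genes in red and the others as open grey circles. Black bars give each list's median over all libraries, blue dashed bars the median without untreated replicate 1, and the dotted line the median of all genes, -0.50. All called members but TNFRSF10A lie above 0, and the mitochondrially encoded mRNAs have the lowest median, -1.43.

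No SERCA gene was called over all libraries. ATP2A2, the gene of SERCA2, thapsigargin's target, stood at 285, 579 and 631 CPM untreated and at 580 CPM after thapsigargin (0.22 ± 0.55, adjusted p = 0.822). It did not leave the untreated range, and its log2 fold change without untreated replicate 1 was -0.06. With the replicate number as a term and without that library it was 0.92 and called (adjusted p = 0.000445). Of 30 genes of calcium handling, 3 rose and none fell, with a median of 0.15. NUCB2, a calcium-binding protein of the secretory pathway, went from 32.5, 44.2 and 46.6 CPM to 275 (2.74 ± 0.34, adjusted p = 0.00454). ATP2B1, the plasma membrane pump that expels calcium from the cell, went from 199, 104 and 111 CPM to 454 (1.72 ± 0.35, adjusted p = 0.0402). SARAF, which restrains store-operated entry, went from 79.3, 94.6 and 112 CPM to 292 (1.61 ± 0.33, adjusted p = 0.0402). The pump gene ATP2A3 (SERCA3) was low, 1.69 to 1.86 CPM untreated and 0.329 after thapsigargin, and was not called (-2.42, adjusted p = 0.0849), but fell by DESeq2 (adjusted p = 0.00261), without tunicamycin 2 h replicate 1 (adjusted p = 0.043), and with the replicate number as a term and no untreated replicate 1 (-1.28, adjusted p = 0.0121). STIM1 and ORAI1, sensor and channel of store-operated entry, were at 41.4 and 10.7 CPM against untreated ranges of 23.6 to 62.5 and 16.4 to 25.4 (adjusted p = 0.772 and 0.239).

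Genes that respond to calcineurin and NFAT rose in 5 of 19 members with none lower (median 0.97, and 1.38 with 6 of 18 called without untreated replicate 1). RCAN1, a feedback inhibitor of calcineurin, stood at 306, 402 and 491 CPM and reached 4655 CPM (3.54 ± 0.39, adjusted p = 0.00256). This was 11.6 times the untreated mean of 400 ± 92.6 CPM (SD, n = 3). NR4A2, an orphan nuclear receptor, went from 36.5, 23.6 and 17.4 CPM to 267 (3.37 ± 0.66, adjusted p = 0.0332), and RGS2, which shortens G-protein signals, from 7.95, 14.5 and 23.2 to 126 (3.05 ± 0.52, adjusted p = 0.0192). Both were higher still in the thapsigargin 2 h library, at 676 and 268 CPM. RGS16 and CREM rose by 2.13 and 1.59. The related NR4A3 reached 191 CPM against 2.98, 7.18 and 13.8 and was not called (4.58 ± 1.51, adjusted p = 0.16).

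Of 32 immediate early genes 3 rose and none fell over all libraries, with a median of 0.14. The count depended on the fit: with the replicate number as a term 9 rose, none fell, and the median was 1.23. With that term 971 of 41130 genes were higher and 466 lower, and the median of all genes was -0.38. ATF3, a stress-inducible partner of CHOP, went from 6.2, 14.8 and 20.1 CPM to 251 (4.19 ± 0.83, adjusted p = 0.0343), and KLF4 from 6.95, 30.8 and 28.2 to 188 (3.10 ± 0.61, adjusted p = 0.0347). EGR1 was at 18.8 CPM against 262, 105 and 47.0, and FOS at 74.7 against 83.0, 18.6 and 5.16, and neither was called. Untreated values of both genes ranged widely.

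Of 24 inflammatory genes 4 rose and none fell over all libraries, with a median of 0.01. In the fit without untreated replicate 1, 5 of 23 rose and CCL2, a monocyte chemokine, fell (-3.55, adjusted p = 0.0258). With the replicate number as a term 10 of 24 rose, none fell, and the median was 1.89. Over all genes 971 of 41130 were higher and 466 lower with that term, at a median of -0.38. IL6, the cytokine interleukin 6, had the highest log2 fold change of the protein-coding genes named here: 0.189, 0.953 and 1.3 CPM untreated and 42.7 CPM after thapsigargin (5.73 ± 0.90, adjusted p = 0.0141). PTGS2 (COX-2), which makes prostaglandin precursors, went from 53.5, 12.3 and 23.4 CPM to 1015 (5.09 ± 0.82, adjusted p = 0.0154). The chemokine gene CXCL3 went from 0.626, 1.09 and 1.66 CPM to 12.8 (3.51 ± 0.70), and NFKBIZ, a nuclear cofactor of NF-kB, from 32.9, 25.5 and 24.2 to 177 (2.68 ± 0.41). CXCL8 was at 448 CPM against 8.84, 456 and 1305 untreated (adjusted p = 0.922). Among growth factors and stress hormones 2 of 20 rose and none fell over all libraries (median 0.19), and with the replicate number as a term 6 rose, 1 fell, and the median was 1.71. VEGFA, the main angiogenic factor, went from 16.3, 57.6 and 51.9 CPM to 388 (3.21 ± 0.53, adjusted p = 0.0181), and IGFBP3 from 51.0, 40.1 and 60.4 to 281 (2.48 ± 0.50). When untreated replicate 1 was left out, INHBE, an activin subunit, rose too (4.22, adjusted p = 0.0026), while BMP4 (-1.51, adjusted p = 0.0313) and ADM, adrenomedullin (-2.23, adjusted p = 0.0484), fell.

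**Figure D3:**
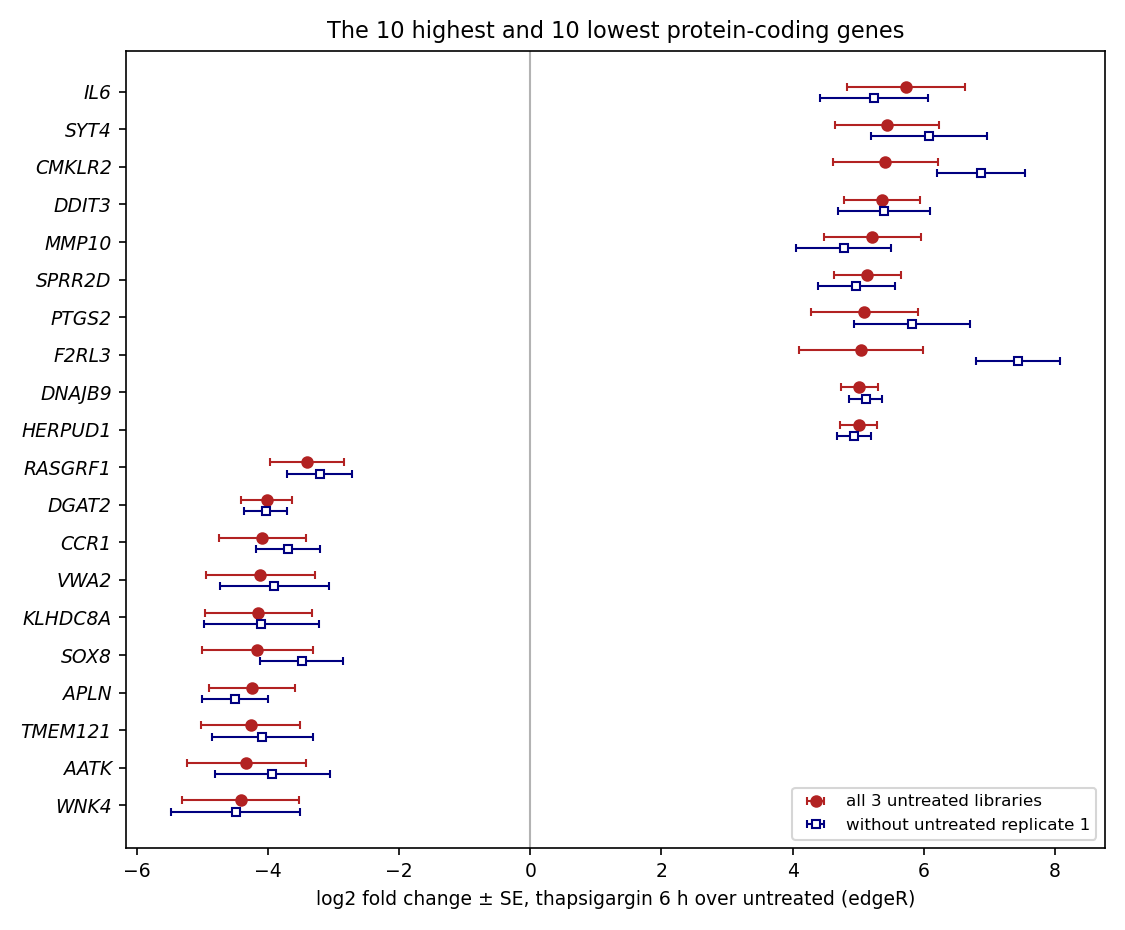
Log2 fold change with its standard error for the 10 highest and the 10 lowest protein-coding genes, with all 3 untreated libraries (red circles) and without untreated replicate 1 (blue squares). All 20 keep their direction. F2RL3 moves from 5.05 to 7.44 and CMKLR2 from 5.42 to 6.87.

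Several of the genes with the highest fold changes were nearly silent in untreated cells. SYT4, a vesicle protein, went from 0.214, 0.0404 and 0.13 CPM to 5.72 (5.44 ± 0.79). MMP10, a matrix metalloprotease, went from 0.0646, 0.194 and 0.270 CPM to 6.38 (5.21 ± 0.74), and SPRR2D, a cornified envelope protein, from 0.139, 0.161 and 0.240 to 6.31 (5.14 ± 0.51). The receptor genes CMKLR2 and F2RL3 rose by 5.42 and 5.05. In untreated replicate 1 these receptors had 53 and 48 counts, but 1 to 5 counts in replicates 2 and 3, the library difference noted above.

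Among called protein-coding genes averaging 50 counts or more over the 4 libraries, the 10 with the lowest fold changes were WNK4, AATK, TMEM121, APLN, SOX8, KLHDC8A, VWA2, CCR1, DGAT2 and RASGRF1, between -4.42 and -3.41. DGAT2, which completes triglyceride synthesis, was the most uniform of them: 18.0, 17.9 and 18.9 CPM untreated and 1.12 CPM after thapsigargin (-4.02 ± 0.39, adjusted p = 0.00199). Its untreated SD was 0.58 CPM. WNK4, a kinase that regulates ion transport, went from 48.4, 59.5 and 53.9 CPM to 2.52 (-4.42 ± 0.89, adjusted p = 0.038), and SOX8, a glial transcription factor, from 61.6, 22.8 and 21.3 to 1.97 (-4.16 ± 0.85). APLN, the ligand apelin, went from 1.08, 2.37 and 1.85 CPM to 0.0919. Among the genes that are not protein-coding, MIR140 fell by 3.74 on the log2 scale. Its 4 counts after thapsigargin stood against 129, 38 and 31, and reads of so short a locus cannot be told from those of overlapping transcripts.

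Sterol and fatty acid genes had a median of 0.02, and 3 of 30 rose and none fell. Without untreated replicate 1 the median was 0.01 beside -0.06 for all genes, and 5 rose and 1 fell. STARD4, a cholesterol carrier, went from 76.6, 70.3 and 77.4 CPM to 521 (2.80 ± 0.27, adjusted p = 0.00199), and HSD17B7 and IDI1, both of cholesterol synthesis, rose by 2.43 and 1.84.

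No reported substrate of IRE1-dependent mRNA decay was called among 13, with a median of -0.52 beside -0.50 for all genes tested, and 8 of the 13 lay below all untreated libraries, as 28.6% of all genes did. After untreated replicate 1 was left out, the median was -0.59 beside -0.06 for all genes, and 2 of them fell: CD59, from 600 and 680 CPM to 233 (-1.46, adjusted p = 0.0231), and TGOLN2, from 515 and 480 to 144 (-1.80, adjusted p = 0.0248). Autophagy genes rose in 4 of 21 (median 0.77), led by WIPI1, a reader of early autophagosomes, from 24.1, 17.4 and 22.1 CPM to 163 (2.94 ± 0.29), and by the ER-phagy receptor CCPG1 (2.57). In the list of ER stress apoptosis (median 0.36) DDIT3 and TRIB3 rose and TNFRSF10A, a death receptor for TRAIL, fell, 2 and 1 of 21 (4 and 2 without untreated replicate 1). TNFRSF10A had 98, 44 and 34 counts untreated and 3 after thapsigargin, a ratio of 0.0583 to the untreated mean (95% exact Poisson interval for the 3 counts 0.012 to 0.17, counting error only). PMAIP1, the death effector NOXA, was at 296 CPM against 15.2, 64.4 and 68.6 (2.58, adjusted p = 0.0543).

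CDC6, which licenses replication origins, was the one cell cycle gene of 30 to rise, from 31.8, 82.4 and 68.0 CPM to 722 (3.57 ± 0.55, adjusted p = 0.0128), and none fell. The list's median was 0.02. With the replicate number as a term and no untreated replicate 1 it was -0.92, beside -0.01 for all genes. In that fit 25 of the 30 members were lower and 1 higher, and of 31144 genes 4095 were lower and 4238 higher. Without untreated replicate 1, 4 members were lower, among them CCND1 (cyclin D1), at 364 CPM against 1769 and 1698 (-2.25, adjusted p = 0.0109), and MKI67, at 361 against 1009 and 790 (-1.32, adjusted p = 0.0435). In untreated replicate 1 these were at 226 and 347 CPM, as low as after thapsigargin.

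None of 79 cytosolic ribosomal protein genes (median 0.46) and none of 31 proteasome genes (median 0.77) was called, where 1.79% of all genes were. Of the ribosomal genes 56 lay above all 3 untreated libraries and 7 below, and of the proteasome genes 25 and 0. Over all genes 25.2% lay above. The 13 mitochondrially encoded mRNAs had a median of -1.43 and 12 lay below all untreated libraries, where 28.6% of all genes lay, and none was called. Their summed level was 5445 CPM after thapsigargin and 7299, 11630 and 13610 CPM in untreated replicates 1 to 3. Replicate 1 of tunicamycin at 6 h, with 5260 CPM, was as low, against 14440 and 14090 in replicates 2 and 3 of that group. In the fit with the replicate number as a term and without untreated replicate 1, the median of these mRNAs turned to 0.51. The remaining 12 lists had medians from -1.66 (glial markers) to 0.48. Of the 16 glial markers 9 lay below all untreated libraries and 1 above, and none was called. Without untreated replicate 1 the glial median was -0.91 and 2 of 14 fell, beside 3.0% of all genes. Together these 12 lists had 1 of 214 members higher and 1 lower, against 1.49% and 0.301% of all genes. The higher one was DNAJB4 (1.97), a cytosolic J-domain protein, and the lower one was the tight junction gene CLDN4 (-2.22, adjusted p = 0.0475), an epithelial marker at 0.36 CPM against 2.15, 1.32 and 1.59. HSPA8, the constitutive cytosolic Hsp70, was at 394 CPM against 1094, 1697 and 1262 (-1.78, adjusted p = 0.0816), and fell without untreated replicate 1 (-1.91, adjusted p = 0.0273).

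Beside tunicamycin, which blocks N-glycosylation instead of emptying the calcium store, the thapsigargin library was compared gene by gene. Over all libraries no gene was called between the drugs at 6 h (0.0% called by edgeR in either direction, 2341 at an unadjusted p under 0.05, and 281 by DESeq2). Without untreated replicate 1, 147 genes were called (0.472%), 113 of them higher after thapsigargin (0.363%) and 34 lower (0.109%). HSPA5 was at 7489 CPM after thapsigargin and at 6892, 12120 and 14700 after tunicamycin, with the thapsigargin value inside the range. RGS2 was at 126 CPM after thapsigargin and at 7.08, 8.47 and 9.03 after tunicamycin (difference 3.94 on the log2 scale, adjusted p = 0.0645 over all libraries and 0.0186 without untreated replicate 1). ATP2B1 was at 454 CPM against 168, 142 and 156 (1.55, adjusted p = 0.322 and 0.0219), and IFRD1 at 612 against 239, 213 and 241 (1.41, adjusted p = 0.285 and 0.0298). RASGRF1 differed the other way, at 0.0612 CPM against 0.554, 0.532 and 0.683 (-3.25, adjusted p = 0.144 and 0.0318). IL6 was at 42.7 CPM against 1.61, 2.71 and 3.22 (4.09, adjusted p = 0.283 and 0.0505). In all 5 of these genes the thapsigargin value lay outside the 3 tunicamycin values, that of the replicate 1 library included. These 5 are given here for their difference between the drugs, so that position follows largely from the choice and is no further evidence.

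**Figure D4:**
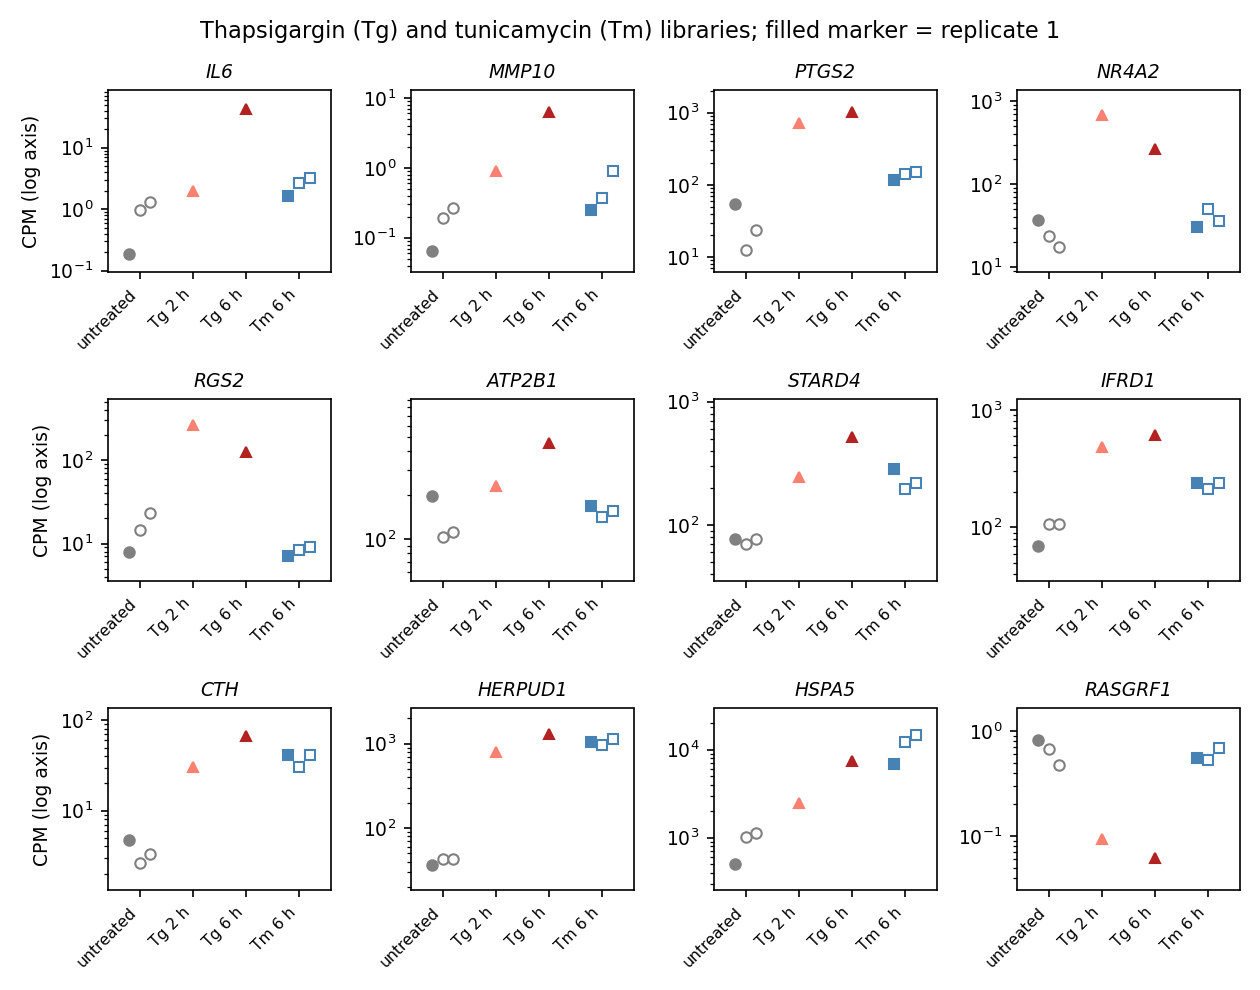
Level of 12 genes in each library, in CPM on log axes, for untreated cells, thapsigargin (Tg) at 2 h and 6 h and tunicamycin (Tm) at 6 h, with filled markers for replicate 1. IL6, MMP10, PTGS2, NR4A2, RGS2, ATP2B1, STARD4 and IFRD1 are higher after thapsigargin at 6 h than in any tunicamycin library. For HSPA5 the thapsigargin value of 7489 CPM lies between those of tunicamycin.

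Ribosome footprints of the same treatment, from 1 separate library against 3 untreated ones, gave values for most of these genes. Footprints are the fragments covered by ribosomes, so their counts follow both mRNA level and translation. In that assay 145 of 19411 genes rose (0.747%) and 44 fell (0.227%), or 0.974% in either direction. Its untreated replicate 1 held 29183769 counts, against 8477747 and 9774377 in untreated replicates 2 and 3. Without that replicate 206 of 18730 genes rose and 94 fell. Of the 613 genes with higher RNA, 516 were tested as footprints, where 471 had the same sign, 92 were called higher and 0 lower. Their median log2 fold change was 1.29 in footprints, against -0.27 for all genes tested there, and 2.07 in RNA. These genes were picked by their RNA change, so a lower median in the other assay is no measure of translation. Of the 124 with lower RNA, 94 were tested, 92 had the same sign and 7 were called lower. Without untreated replicate 1 of the footprints, 122 of 513 genes with higher RNA were called higher, and 6 of 92 with lower RNA were called lower. HERPUD1 (4.45), DDIT3 (4.90), TRIB3 (4.52), HSPA5 (3.18) and DGAT2 (-4.34) were called in both assays. IL6 footprints were at 0, 1.03 and 1.51 CPM untreated and at 38.0 CPM after thapsigargin (adjusted p = 0.0556). ATP2B1 was higher in RNA alone, with a footprint log2 fold change of 0.08 (adjusted p = 0.966), and the difference between the assays was not tested.

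**Figure D5:**
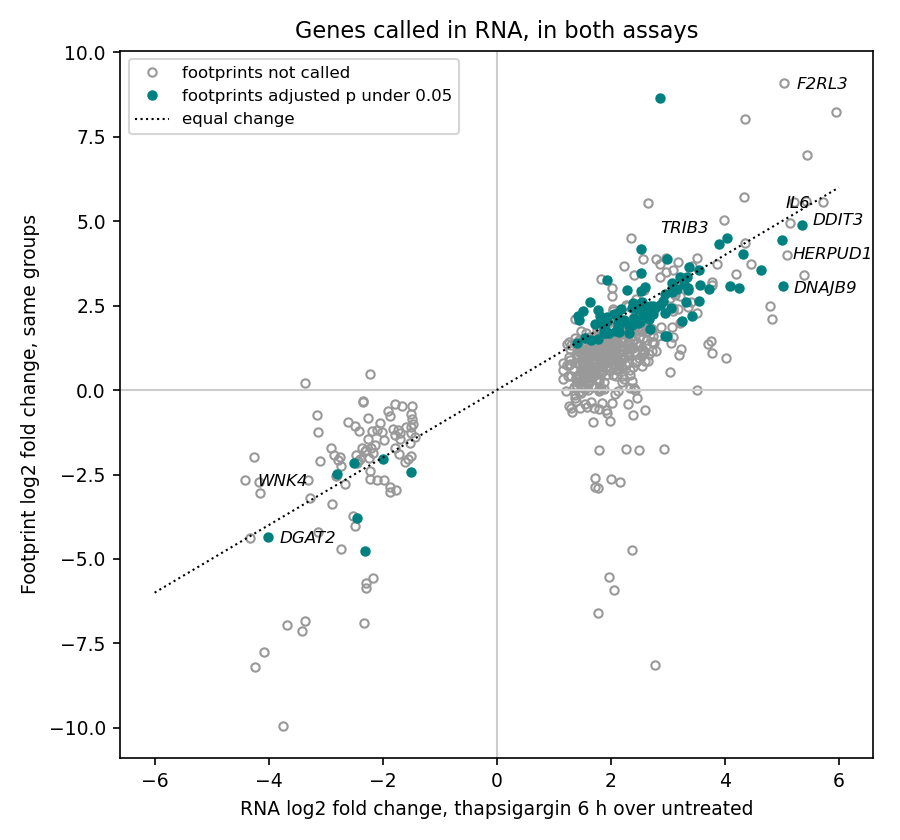
Log2 fold change in RNA (x axis) and in footprints (y axis) of the 516 higher and 94 lower genes called in RNA and tested in both, with genes also called in footprints in teal and equal change as a dotted line. Most points share their sign. The thapsigargin footprint library held 6376027 counts, against 144514571 in RNA.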

How the data were processed

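The deposited files hold, per the labels, 1 library each of LN308 cells: 11 RNA-Seq and 11 Ribo-Seq. Values are raw read counts per gene, which the authors made with STAR 2.5.4b and HTSeq on GRCh38, per the submitters' processing notes. These also name DESeq2. Whether counting used strand is not given in the sources used here.

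Counts were filtered (edgeR filterByExpr, minimum count 10), scaled by TMM (factor 1.457 for untreated replicate 1 and 0.9038 for thapsigargin 6 h) and tested with edgeR 4.0.16 (quasi-likelihood, robust, 5 groups, 6 residual degrees of freedom), with Benjamini-Hochberg adjustment at 0.05. ± values are standard errors of the log2 fold change unless marked SD. They were derived from the test, as the absolute change divided by the square root of its F statistic. CPM values are TMM-scaled. Alternatives used DESeq2 1.42.0, other scalings and filters, each library left out, and the replicate number as a term. Replicate numbers were checked for pairing by correlating deviations from the group means. Between tunicamycin 2 h and 6 h these correlated at 0.676, 0.414 and 0.435 for replicates 1, 2 and 3. With the untreated group, whose mean includes untreated replicate 1, the range was 0.0757 to 0.238. As 1 pair fell below the required 0.1, the numbers were not taken to pair libraries. The check was not repeated without untreated replicate 1, so it cannot decide whether the numbers pair the other libraries. On simulated data with all libraries, 2-, 4- and 8-fold changes were recovered in 2.99, 8.96 and 62.1% of changed genes, and in 0, 41.8 and 80.3% without untreated replicate 1. The simulated libraries shared the same mean for each gene, apart from changes set in thapsigargin 6 h for genes averaging above 1 CPM. They held no library set apart like untreated replicate 1 and no shift shared by replicate 1 libraries. These rates therefore do not carry over to the real libraries.

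Named genes were 12 sentinels, the 10 highest and 10 lowest called protein-coding genes (mean over the 4 libraries 50 counts or more), 3 others in each direction, and the 4 members of each of 35 lists with the smallest p. HSP90B1, HYOU1, CALR, CANX, PDIA4, CRELD2, SYVN1, ERN1, ATF6, STIM1, ORAI1, CREM, FOS, EGR1, CXCL8, SLC7A1, TYMS, SLC19A1, MAT2A, ADM and CCL2 were added after their values were seen. Members and lists were chosen with earlier results of these data known. Of 842 list entries, 837 matched.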

Additional observations from a re-analysis of the deposited data

How the results depend on the processing

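The comparison with untreated cells called 737 genes. It called 414 when libraries were scaled by their totals alone, 1113 with a minimum count of 50, 2872 with DESeq2 and 0 when the 4 libraries were fitted alone (4507 at an unadjusted p under 0.05 in edgeR). Leaving out single libraries gave 178 (without untreated replicate 2) to 2411 (without untreated replicate 1). All 737 kept their sign in every one of these settings in which they were tested, and 736 were called again without untreated replicate 1. The comparison with tunicamycin, with 0 calls, gave 24 with no filter, 281 with DESeq2 and 0 to 147 with single libraries left out. The footprint comparison, with 189 calls, gave 731 with no filter, 883 with DESeq2, 0 when fitted alone (2149 at an unadjusted p under 0.05 in edgeR) and 63 to 300 with single libraries left out. The cause of these changes was not tested.

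With the replicate number as a block, 1437 genes were called against untreated cells and 29 against tunicamycin, and with the block and no untreated replicate 1 the counts were 8333 and 4211. The replicate numbers were not taken to pair the libraries, by a check that included untreated replicate 1 and cannot decide for the others. Footprint columns of thapsigargin carry no number, so no block was fitted there. The median of all genes was -0.38 with the block and -0.01 with the block and no untreated replicate 1. With the block, list medians were 1.63 for amino acid genes, 1.23 for immediate early genes, 1.89 for inflammatory genes, 1.71 for growth factors, 0.038 for ribosomal proteins, 0.66 for apoptosis and 0.46 for autophagy. With the block and no untreated replicate 1 they were 0.76 for degradation, 0.35 for N-glycosylation, 2.30 for PERK and ATF4 targets, 0.85 for tRNA synthetases, 1.94 for calcineurin and NFAT genes, 1.56 for immediate early genes, 1.63 for inflammatory genes, 1.60 for growth factors, 0.53 for sterol genes, -0.17 for ribosomal proteins, 0.40 for autophagy, -0.056 for the proteasome, -0.92 for the cell cycle and 0.51 for mitochondrially encoded mRNAs.

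Scaling by totals alone gave medians of 1.24 for chaperones, 1.07 for degradation, 0.83 for traffic, 0.77 for mRNAs with upstream reading frames, 0.34 for N-glycosylation, 1.03 for tRNA synthetases, -0.28 for one-carbon genes, -0.19 for calcium handling, -0.35 for sterol genes, 0.076 for ribosomal proteins, 0.055 for apoptosis and 0.40 for autophagy. Over all genes the median with totals alone was -0.86. Without untreated replicate 1 the median for degradation was 1.09. Among single genes, none of them called over all libraries, ATP2A2 turned to -0.047 with totals alone, ranged from -0.065 to 0.43 with single libraries left out, and was 0.97 with the block and 0.92 (called) with the block and no untreated replicate 1. SLC7A1 ranged from -0.50 to 0.49 with single libraries left out and was 1.59 with the block and 1.00 (called) with the block and no untreated replicate 1. CXCL8 ranged from -0.97 to 0.94 with single libraries left out and turned to 4.78 with the block and to 4.00 with the block and no untreated replicate 1, EGR1 to 0.51 with the latter and STIM1 to 0.30 with the block. Of 85 described genes called over all libraries, 77 were called with the block, 85 with DESeq2 and 43 whichever library was left out.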
